A study of Rattus norvegicus with 8 samples.

Results

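Oxidative phosphorylation is carried out by 5 protein complexes of the inner mitochondrial membrane, and the genes described here encode their nuclear subunits and some of their assembly factors. They were chosen by name: probe sets of the array whose only gene symbol begins with Nduf, Sdh, Uqcr, Cox4, Cox5, Cox6, Cox7, Cox8 or Atp5, or is Cyc1 or Cycs. The rule found 89 genes, on 95 probe sets, of 10411 genes with a symbol of their own in the table, and the probe set with the highest mean signal stood for each gene. Complex I had 39 genes, complex II 8, complex III 8, complex IV 18 and complex V 16. Cytochrome c (Cycs) was not analysed here, and the subunits encoded by mitochondrial DNA lie outside the rule.

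Complex I takes electrons from NADH and complex II takes them from succinate, and both pass them to ubiquinone. Complex III hands them to cytochrome c, complex IV gives them to oxygen, and complex V, the ATP synthase, makes ATP with the proton gradient that the pumping complexes build. In an epithelium that absorbs sodium, this ATP feeds the sodium pump of the basolateral membrane. Glucocorticoids are known to raise sodium absorption in such epithelia.

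The data come from primary cultures of the semicircular canal duct (SCCD) of the rat inner ear. One group of 4 arrays was from cultures exposed to the synthetic glucocorticoid dexamethasone at 100 nM, and the other 4 arrays were from cultures left without it (control). The methods describe cultures of neonatal Wistar rats on permeable supports. How long the cultures of the arrays saw dexamethasone, how many animals each holds and whether they were independent are not stated, and the p-values cover only the spread among the 8 samples measured. RNA of a whole culture was measured, and fewer cells of a type and less RNA per cell cannot be told apart.

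The values are signals in arbitrary units, rescaled so that each array had a trimmed mean of 500. The deposited arrays fell into 2 sets: replicates 1 and 2 of both groups were already at 500, and replicates 3 and 4 were multiplied by 1.49 to 2.48, with the highest factor on control replicate 3. Dexamethasone raised 5 of 5 known glucocorticoid targets on the array (Sgk1, Fkbp5, Tsc22d3, Per1 and Scnn1a), by 1.3 to 3.19 on the log2 scale, although the call of Scnn1a was lost when dexamethasone replicate 1 or 2 or any 1 of the control arrays was left out. Of 13 epithelial markers, 11 lay above the genes of other organs on all 8 arrays, while Pax8 and Cdh16 did so on none. Of the markers of other cells, 4 of 10 for fibroblasts (Col1a1, Col1a2, Col3a1 and Postn), 1 of 7 for endothelium (Kdr), 0 of 9 for macrophages, 0 of 5 for melanocytes, 1 of 7 for neurons and Schwann cells and 1 of 15 for muscle lay above that level on all 8 arrays, and Ptprc of leukocytes and Pecam1 of endothelium lay above it on none. The macrophage markers Cd14, Lyz2 and Aif1 lay above it on some arrays. Summed macrophage markers were 1086 to 4496 with dexamethasone and 818 to 1380 in control, and summed fibroblast markers 4342 to 7444 with dexamethasone and 5680 to 7389 in control. The summed epithelial markers ranged over 52681 to 57885 with dexamethasone and 52850 to 64875 in control. Of the 11 epithelial markers tested, 4 had a log2 fold change below 0, against 54.1% of all probe sets, and the median of the 11 was 0.10. Within this list Krt18 was lower with dexamethasone (log2 fold change -0.47, adjusted p = 0.030, limma), a call lost when any 1 of the dexamethasone arrays was left out. The summed endothelial markers were 3007 to 3629 with dexamethasone and 1214 to 1491 in control, mostly Kdr. Of the 3 endothelial markers tested, Kdr was called higher and Flt1 lower with dexamethasone at an adjusted p under 0.05 (limma). Kdr kept its call under 23 of 23 alternatives and Flt1 under 15 of 21. The ratio of 3′ to 5′ signal of beta-actin, a sign of RNA length, was 6.17 to 8.07 with dexamethasone and 8.10 to 13.7 in control. The beta-actin ratios thus moved with the treatment, although the nearest arrays almost met. The same ratio for GAPDH overlapped between the groups, at 2.14 to 3.18 with dexamethasone and 2.10 to 3.79 in control. The part of any of these in the results below was not tested, apart from the fits with the beta-actin ratio as a covariate.

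Most of the respiratory chain was detected in the SCCD cultures. As a yardstick, 60 genes of pancreas, liver, retina, testis and other organs gave a 95th percentile of 167 to 264 on the 8 arrays. Of the 89 genes, 76 lay above it on all 8 arrays, 4 on some and 9 on none. The genes above it on some arrays were Ndufa5 (5 arrays), Ndufaf8 (7), Cox5a (4) and Atp5mg (6). The 84 genes whose signal averaged 100 or more over the arrays were tested, and their mean signals ran over 120 to 7085.

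Complex IV contains subunits with tissue-restricted isoforms, and most of these isoforms were not above this yardstick. Cox6a2 and Cox8b, the forms of heart and skeletal muscle, gave 10.4 to 24.2 and 4.53 to 6.70 with dexamethasone, against 6.70 to 16.3 and 4.47 to 6.90 in control. Cox6b2, the testis form, gave 5.8 to 26.3 with dexamethasone and 5.70 to 11.6 in control. Cox4i2, best known from the lung, gave 55.9 to 110 with dexamethasone and 27.8 to 125 in control. These 4 genes and Ndufa4l2, known as a target of hypoxia signalling (44.2 to 91.3 with dexamethasone, 47.7 to 61.6 in control), were below the yardstick on every array and under the limit for testing. Cox7a1, another muscle form, gave 96.5 to 165 with dexamethasone and 130 to 202 in control, below the yardstick on every array too, although it was tested. Their broadly expressed counterparts Cox6a1, Cox8a, Cox6b1, Cox4i1 and Ndufa4 were above it on all 8 arrays in both groups. The remaining genes above it on no array were Ndufb8, Sdhaf3 and the pseudogene Cox6c-ps1.

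Dexamethasone went with slightly lower signals over the family, but no single gene was called. With limma and Benjamini-Hochberg adjustment over 10368 probe sets, at an adjusted p under 0.05, 0 of 84 genes were higher and 0 were lower, while 1.88% of all probe sets were called higher and 0.81% lower. At an unadjusted p under 0.05, 21 genes were lower (25%) and 0 were higher, against 8.16% and 7.96% of all probe sets. Of the 84 genes, 75 had a log2 fold change below 0 (89.3%), as had 54.1% of all probe sets. The median log2 fold change was -0.16, a median signal 10.6% lower, and -0.02 over all probe sets. Among the 71 members whose signal averaged 500 or more the median was -0.15, and among the 4825 probe sets of that strength it was -0.03. At an unadjusted p under 0.05 (limma), 28.2% of these members and 10.5% of these probe sets were lower.

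The standard errors of the log2 fold changes ran over 0.077 to 0.26, with a median of 0.12. For 30 of 84 genes the 95% interval lay within a 1.3-fold change either way. For 80 genes it excluded a rise of 1.3-fold, and for 52 it included a fall of that size. The 6 genes with an estimate beyond 1.3-fold were Ndufb3, Ndufb10, Ndufa2, Ndufaf8, Ndufa3 and Ndufa11, all of complex I and all with lower signals under dexamethasone.

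The median over the whole family separated the groups array by array, with control replicate 3 at the top. Each gene's log2 signal was set against its own mean over the 8 arrays, and the median over the 84 genes was -0.03, -0.07, -0.09 and -0.12 on dexamethasone replicates 1 to 4, against 0.02, 0.09, 0.20 and 0.01 on control replicates 1 to 4. In this median every dexamethasone array lay below every control array, the gap between the nearest arrays being that of dexamethasone replicate 1 and control replicate 4. Among the complexes, the median of complex II separated the groups too, and those of complexes I, III, IV and V did not. Complex I was at 0.009 on dexamethasone replicate 1 and -0.003 on control replicate 4. Complex IV was at 0.039 on dexamethasone replicate 2 and -0.094 on control replicate 4. The same medians over all probe sets lay between -0.05 and 0.04 on the 8 arrays. Control replicate 3, the array with the highest beta-actin ratio and rescaling factor, held the highest of the 8 signals for 42 of 84 genes (50.0%), as it did for 23.5% of all probe sets. Without it the median log2 fold change of the family was -0.12, against -0.02 over all probe sets, and 7 genes, in place of 21, were lower at an unadjusted p under 0.05 (8.33%), near the 6.85% of all probe sets in that fit. With the beta-actin ratio as a covariate the median was -0.07, against -0.02 over all probe sets, and 2 genes were lower (2.38%), against 4.42% of all probe sets. With the signals as deposited, where the median of all probe sets shifted to 0.14, the median of the family was 0.00. Rescaling multiplies each array by 1 factor and so moves all genes alike, apart from the filter on low signals.

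**Figure D1:**
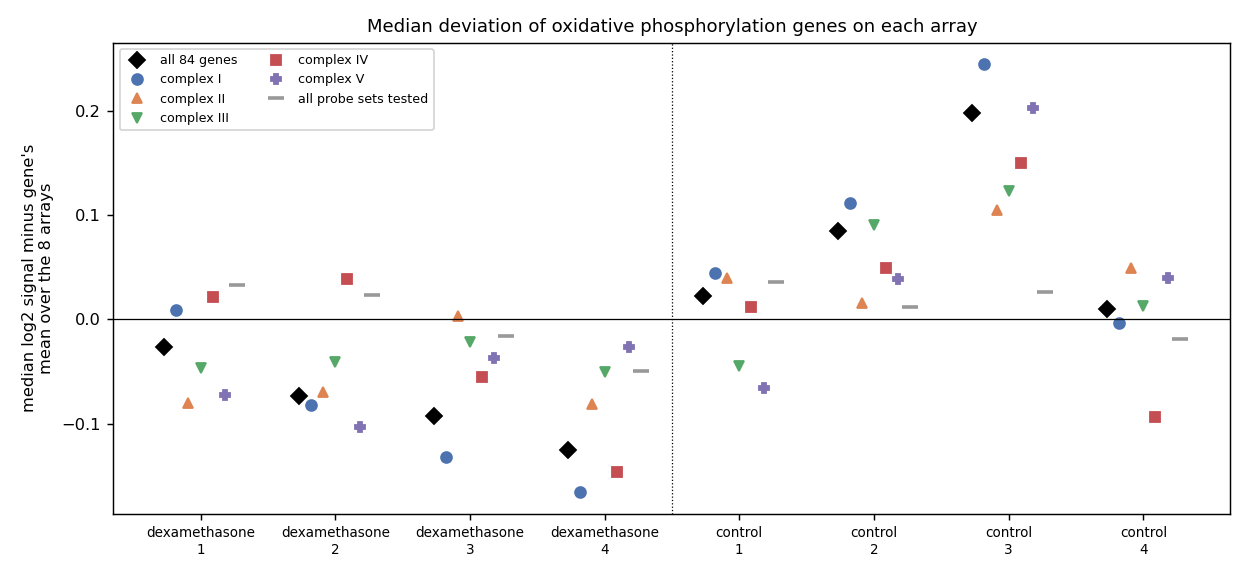
Median deviation of the 84 tested genes, of each complex and of all probe sets on each array, as log2 signal minus the gene's own mean over the 8 arrays (y axis), with dexamethasone arrays left of control arrays. The 84 genes together lie below 0 on the 4 dexamethasone arrays and above 0 on the 4 control arrays, highest on control replicate 3 at 0.20. The medians of complexes I, III, IV and V overlap between the groups.

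For 8 genes every dexamethasone array was below every control array (9.52%), which held for 5.46% of all probe sets. All 8 were among the 71 members whose signal averaged 500 or more (11.3%), and 7.17% of probe sets of that strength had this pattern. For 0 genes was every dexamethasone array above every control array, which held for 5.57% of all probe sets. The 8 were Ndufa2, Ndufa12, Ndufa13, Ndufb1 and Ndufs8 of complex I, Sdhb of complex II, and Atp5po and Atp5f1d of complex V. In the exact permutation test of 4 against 4 arrays (two-sided) each of them had p = 0.0286, the smallest this design allows. They were picked for this pattern after their values were seen.

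The promoters of respiratory chain genes are known for binding sites of nuclear respiratory factor 1 (NRF1), of ETS factors such as GABP (also called NRF2) and of YY1. Of the 89 genes, 80 had a promoter of 300 bases in RefSeq (rat build GRCr8), taken over 250 bases before and 50 after the start site. The NRF1 word GCGCANGCG stood on either strand in 26.2% of these promoters, against 11.6% of 9467 promoters of genes on the array and 5.8% of 33469 promoters in all. The ETS word CCGGAAG stood in 30%, against 14.9% and 8.75%. The YY1 word AAGATGGC stood in 21.2%, against 4.9% and 3.17%, and in 12 of the 17 genes its first match began after the start site. At least 1 of these 3 words was in 49 of 80 promoters (61.3%), against 27.0% of those of genes on the array. The word of oestrogen-related receptors, AAGGTCA, stood in 13.8%, against 3.21% and 4.61%, and the Sp1 word GGGCGG in 45.0%, against 58.6% and 33.1%. A promoter was counted once however many matches it held, and matches of different words were counted apart even where they overlapped. No test was made of the words against the differences. The median log2 fold change was -0.24 for the 21 genes with the NRF1 word and -0.15 for the 55 tested genes without it, -0.19 and -0.17 for the ETS word, and -0.17 and -0.18 for the YY1 word.

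Of the 8 genes without overlap, 6 held an NRF1 or ETS word before the start site, as did 37 of the 80 members (46.2%) and 21.3% of the promoters of genes on the array. With 8 genes picked for their values, nothing is read from this count. The stretch around the first match is printed for these 6, since they are the genes whose arrays separated fully, 5′ to 3′ on the strand of the gene, with 30 bases on each side or up to the base before the start. Capitals mark the letters of a match on either strand.
Ndufa12, chr7:30658175-30658243, plus strand, NRF1 word: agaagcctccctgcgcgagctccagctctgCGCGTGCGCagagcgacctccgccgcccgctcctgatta
Atp5po, chr11:44657504-44657572, minus strand, 2 overlapping NRF1 matches: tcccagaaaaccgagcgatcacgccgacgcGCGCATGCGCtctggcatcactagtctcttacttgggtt
Ndufa2, chr18:28631994-28632060, minus strand, ETS word: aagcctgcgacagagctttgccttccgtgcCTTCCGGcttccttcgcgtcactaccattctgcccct
Ndufa13, chr16:19560370-19560436, plus strand, ETS word: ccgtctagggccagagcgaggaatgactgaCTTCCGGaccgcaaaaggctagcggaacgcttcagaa
Ndufs8, chr1:210573699-210573740, minus strand, ETS word: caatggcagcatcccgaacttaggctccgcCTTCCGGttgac
Sdhb, chr5:158547796-158547862, plus strand, ETS word: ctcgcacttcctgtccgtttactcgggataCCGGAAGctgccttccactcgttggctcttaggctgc
A match is a string of letters and no measured site, and no factor was measured at these promoters. The words lay between 12 and 146 bases before the start sites in these 6 genes.

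Complex I, the NADH dehydrogenase and the largest of the complexes, had the lowest median difference of the 5 complexes, and the complexes were not tested against each other. Its 39 genes had a median log2 fold change of -0.24, 37 lay below 0, and 14 were lower at an unadjusted p under 0.05 (35.9%). Over all probe sets 54.1% lay below 0 and 8.16% were lower at that threshold. The count in complex I was 6 without control replicate 3, 5 without dexamethasone replicate 4 and 2 with the beta-actin ratio as a covariate. In these fits 6.85%, 6.4% and 4.42% of all probe sets were lower at the same threshold. The membrane arm, which pumps protons, had a median of -0.25 over 18 genes, with 8 lower at that threshold. The peripheral arm, which holds the flavin and the iron-sulfur clusters, had a median of -0.24 over 15 genes, 5 of them lower and all 15 below 0 in both array sets. The 6 core subunits, those shared with bacteria, had a median of -0.11, and the 28 accessory subunits -0.24. The 11 Ndufb genes, accessory subunits of the membrane arm, had a median of -0.28, with 6 lower at the unadjusted threshold. The 5 assembly factors of complex I had a median of -0.24, and 1 of them, Ndufaf8, was lower at that threshold.

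Ndufb3, an accessory subunit of the membrane arm, had the largest difference of the 84 genes. Its signal was 3550, 3122, 3731 and 4721 with dexamethasone, against 4351, 5521, 7809 and 6365 in control. The groups overlapped in 1 array each, since dexamethasone replicate 4 was above control replicate 1. The estimate was a log2 fold change of -0.65 ± 0.17 (SE), 1.57-fold lower with dexamethasone (limma, adjusted p = 0.0675). It passed the threshold where the array set was a block (adjusted p = 0.00727), as did Ndufb10 (adjusted p = 0.0282), and these were the 2 of 84 genes called lower there (2.38%, against 2.26% of all probe sets). In that fit 0 genes were called higher, against 3.32% of all probe sets. With the beta-actin ratio as a covariate the log2 fold change of Ndufb3 was -0.41 (adjusted p = 0.620), and that of Ndufb10 -0.51 (adjusted p = 0.549).

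**Figure D2:**
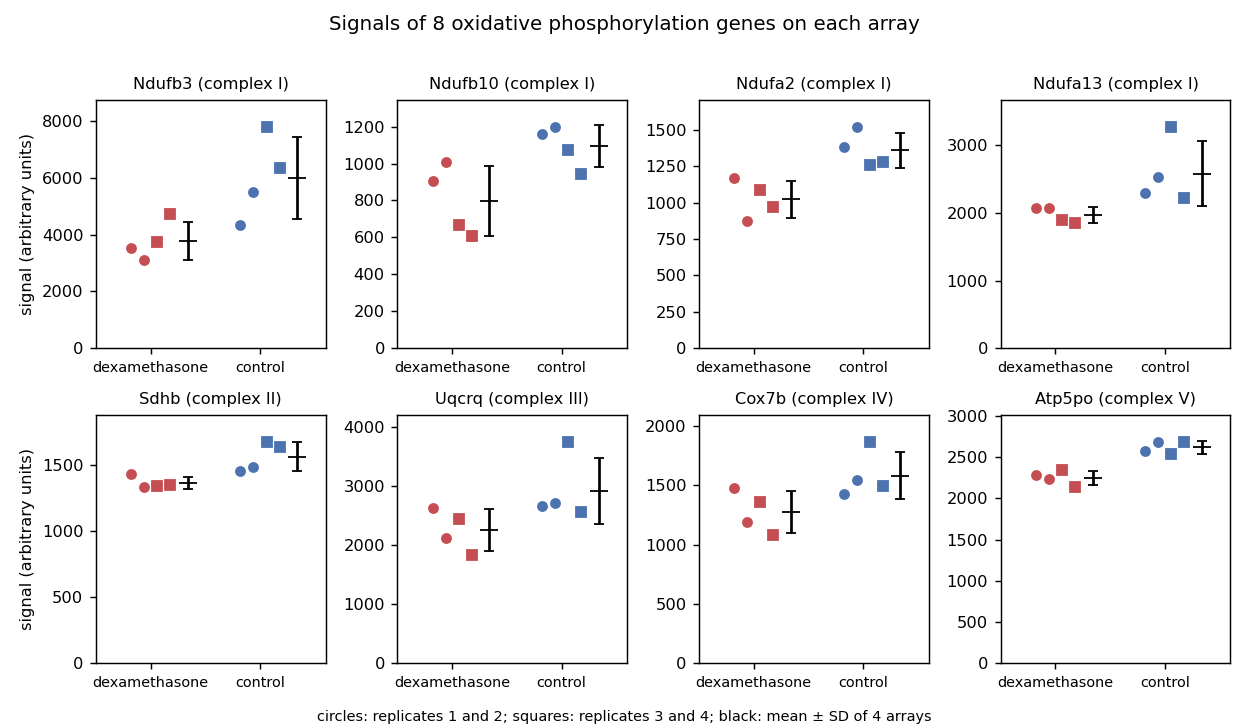
Signals of 8 genes on each array (y axis, arbitrary units, starting at 0), with dexamethasone left of control, circles for replicates 1 and 2, squares for replicates 3 and 4, and the mean ± SD of 4 arrays in black. Ndufa2, Ndufa13, Sdhb and Atp5po have no overlap between groups, and Ndufb3 has the largest difference, at 3122 to 4721 with dexamethasone against 4351 to 7809 in control.

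Ndufb10, a subunit near the end of the membrane arm, gave 905, 1006, 669 and 605 with dexamethasone and 1162, 1199, 1073 and 941 in control. In both groups replicates 3 and 4 were the lower arrays, and dexamethasone replicate 2 overlapped with control replicate 4. The log2 fold change was -0.48 ± 0.17 (SE; adjusted p = 0.167, limma). Ndufa2, a small subunit of the peripheral arm, gave 1166, 872, 1085 and 967 with dexamethasone, against 1383, 1522, 1258 and 1277 in control (log2 fold change -0.42 ± 0.12, adjusted p = 0.0996). The groups did not overlap, and the log2 fold change was -0.52 within replicates 1 and 2, against -0.31 within replicates 3 and 4. It was -0.45 with the beta-actin ratio as a covariate.

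Ndufa13, also known as GRIM-19 and part of the membrane arm, gave 2072, 2079, 1891 and 1846 with dexamethasone and 2303, 2526, 3276 and 2219 in control. All dexamethasone arrays were below the lowest control array, and control replicate 3 stood well above the other controls. The log2 fold change was -0.37 ± 0.12 (SE; adjusted p = 0.161), and -0.14 with the beta-actin ratio as a covariate. Ndufa12, at the base of the peripheral arm, gave 2133, 1829, 1943 and 1965 with dexamethasone, against 2212, 2349, 2818 and 2312 in control (log2 fold change -0.30, adjusted p = 0.174). Again no array overlapped, and control replicate 3 was the highest.

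Ndufb1, a further membrane arm subunit, gave 891, 707, 842 and 698 with dexamethasone and 975, 914, 1180 and 895 in control (log2 fold change -0.34, adjusted p = 0.230). The nearest arrays, dexamethasone replicate 1 and control replicate 4, were 891 and 895, and with the beta-actin ratio as a covariate the log2 fold change was -0.08. Ndufs8, a core subunit that binds iron-sulfur clusters, gave 889, 911, 815 and 821 with dexamethasone, against 989, 1016, 1128 and 957 in control (log2 fold change -0.25, adjusted p = 0.264). Of the other core subunits, Ndufs7 gave 872 to 1075 with dexamethasone and 1019 to 1388 in control, while Ndufv1, which binds NADH, gave 1140 to 1303 with dexamethasone and 1218 to 1383 in control. The interval for Ndufv1 ran over -0.25 to 0.18. Ndufb9 was the complex I subunit on the other side, with 2119 to 2348 with dexamethasone and 1985 to 2227 in control (log2 fold change 0.09).

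Complex II, succinate dehydrogenase, which also works in the citric acid cycle, had a median log2 fold change of -0.07 over 8 genes. Of these, 0 were lower at an unadjusted p under 0.05, against 8.16% of all probe sets. Sdhb, the iron-sulfur subunit, gave 1431, 1336, 1342 and 1351 with dexamethasone and 1458, 1483, 1678 and 1640 in control. The groups did not overlap, although dexamethasone replicate 1 and control replicate 1 were close (log2 fold change -0.19 ± 0.10, SE; adjusted p = 0.350). The other 3 subunits, Sdha with the flavin and the membrane anchors Sdhc and Sdhd, had log2 fold changes of -0.05, -0.01 and 0.01. Over these 3 genes the 95% intervals reached down to -0.30 and up to 0.24.

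The 4 assembly factors of complex II had a median log2 fold change of -0.16. Sdhaf4, which helps to mature Sdha, gave 335, 409, 330 and 339 with dexamethasone and 361, 408, 591 and 379 in control (log2 fold change -0.28, adjusted p = 0.467). Here control replicate 3 alone was far from the rest, and without it the log2 fold change was -0.12. Sdhaf3, which helps to insert the clusters of Sdhb, gave 126 to 157 with dexamethasone and 154 to 190 in control, below the yardstick of silent genes on every array.

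Complex III, the cytochrome bc1 complex, had a median log2 fold change of -0.14 over 8 genes. At an unadjusted p under 0.05, 1 was lower (12.5%, against 8.16% of all probe sets and 10.5% of those averaging 500 or more). That gene was Uqcrq, a small accessory subunit, with 2628, 2118, 2433 and 1824 with dexamethasone and 2650, 2710, 3748 and 2553 in control. Dexamethasone replicate 1 lay between the controls, and control replicate 3 was far above them (log2 fold change -0.37 ± 0.15, SE; adjusted p = 0.238). The log2 fold change of Uqcrq was -0.007 with the beta-actin ratio as a covariate. Uqcr11, the smallest subunit, gave 2762, 2615, 2329 and 2157 with dexamethasone and 2864, 2806, 2812 and 2478 in control (log2 fold change -0.16, adjusted p = 0.508). Uqcrc1, a core protein of the matrix side, gave 2509, 2544, 2272 and 2470 with dexamethasone and 2310, 2759, 3506 and 2629 in control (log2 fold change -0.18, adjusted p = 0.523). Both overlapped between groups, and the log2 fold change of Uqcrc1 was -0.06 without control replicate 3 and that of Uqcr11 -0.09 without dexamethasone replicate 4. The catalytic subunits did not share a direction: Cyc1, which carries haem c1, had a log2 fold change of -0.17 (-0.11 without dexamethasone replicate 3), and Uqcrfs1, the Rieske iron-sulfur protein, had 0.20, the highest of the 84 genes. For Uqcrfs1 the value was 0.34, 0.09 and 0.10 without control replicate 2, 3 or 4. Uqcrfs1 gave 1631, 1933, 1695 and 1941 with dexamethasone and 1728, 2123, 1268 and 1298 in control. The 2 control arrays of replicates 3 and 4 were its lowest, and its difference was -0.11 within replicates 1 and 2, against 0.50 within replicates 3 and 4 on the log2 scale (interaction adjusted p = 0.787).

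Complex IV, cytochrome c oxidase, had a median log2 fold change of -0.13 over 13 tested genes. At an unadjusted p under 0.05, 3 were lower (23.1%, against 8.16% of all probe sets). The 3 are small subunits around the catalytic core. Cox7b gave 1479, 1194, 1360 and 1080 with dexamethasone and 1425, 1544, 1869 and 1491 in control (log2 fold change -0.31 ± 0.13, SE; adjusted p = 0.261). Dexamethasone replicate 1 was above control replicate 1, and with the beta-actin ratio as a covariate the log2 fold change was -0.05. Cox6a1 gave 3776, 4041, 3305 and 3290 with dexamethasone and 4176, 4741, 4865 and 3588 in control (-0.26, adjusted p = 0.280). Cox7c gave 3108, 2814, 2771 and 2549 with dexamethasone and 3152, 3856, 3667 and 2817 in control (-0.26, adjusted p = 0.293). In both genes control replicate 4 reached into the dexamethasone arrays. Cox4i1, the main form of the regulatory subunit 4, lay on the other side, with 3089, 2644, 2685 and 2791 with dexamethasone and 2729, 2700, 2416 and 2489 in control (log2 fold change 0.12, interval -0.08 to 0.32). Cox6c and Cox7a2l, a factor of supercomplex assembly, had log2 fold changes of 0.02 and 0.01.

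Complex V, the ATP synthase, had a median log2 fold change of -0.13 over 16 genes. At an unadjusted p under 0.05, 3 were lower (18.8%, against 8.16% of all probe sets). The F1 part, counted with the central stalk, had a median of -0.10 over 5 genes. The membrane part with the peripheral stalk had -0.15 over 10 genes. Atp5po, the subunit that ties the peripheral stalk to the F1 head, had little spread within either group. It gave 2291, 2240, 2342 and 2143 with dexamethasone, against 2571, 2690, 2541 and 2682 in control (log2 fold change -0.22 ± 0.08, SE; adjusted p = 0.216). No arrays overlapped, and both array sets gave a log2 fold change of -0.22. The fit with the beta-actin ratio as a covariate gave -0.22 too.

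Atp5mk, a small subunit of the membrane part, gave 4308, 4135, 4516 and 3961 with dexamethasone and 4778, 4395, 5660 and 4904 in control (log2 fold change -0.22, adjusted p = 0.276). Only dexamethasone replicate 3 reached the lowest control array, and with the beta-actin ratio as a covariate the log2 fold change was -0.02. Atp5f1e and Atp5f1d form part of the central stalk. Atp5f1e gave 3635, 3580, 3374 and 3401 with dexamethasone and 3451, 3932, 4947 and 4320 in control (-0.24, adjusted p = 0.302, and -0.15 without control replicate 3), with an overlap at control replicate 1. Its log2 fold change was -0.04 with the beta-actin ratio as a covariate. Atp5f1d gave 2840, 2805, 2770 and 2599 with dexamethasone and 2845, 2915, 3898 and 3144 in control (-0.21, adjusted p = 0.385). For Atp5f1d the nearest arrays, dexamethasone replicate 1 and control replicate 1, were 2840 and 2845, and its log2 fold change was -0.11 without control replicate 3 and 0.03 with the beta-actin ratio as a covariate. The catalytic Atp5f1b gave 5292 to 6990 with dexamethasone and 4758 to 8526 in control (-0.01). Atp5if1, which inhibits the enzyme when it runs backwards, gave 1099 to 1695 with dexamethasone and 1131 to 1405 in control (0.14, adjusted p = 0.680), and its log2 fold change was 0.25 without dexamethasone replicate 2 and 0.04 without dexamethasone replicate 4.

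The array sets gave differences of unequal size. Within replicates 1 and 2 the family had a median log2 fold change of -0.10 and complex I of -0.14. Within replicates 3 and 4 these medians were -0.23 and -0.30. Of the 84 genes, 60 lay below 0 in both sets, as did 3530 of all 10368 probe sets. The interaction of treatment with array set was called for 0 of 84 genes and 0% of all probe sets at an adjusted p under 0.05, and 6 of 84 genes had an unadjusted p under 0.05 (Ndufb4, Ndufa3, Ndufab1, Uqcrfs1, Cox8a and Atp5f1e), a share close to the 5.66% of all probe sets. For Ndufa3, of the membrane arm, the log2 fold change was -0.0014 within replicates 1 and 2, against -0.78 within replicates 3 and 4, and -0.21 without dexamethasone replicate 4. It gave 2034, 1540, 1249 and 972 with dexamethasone and 1952, 1607, 2374 and 1499 in control. For Ndufb3 the values in the sets were -0.56 and -0.75.

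**Figure D3:**
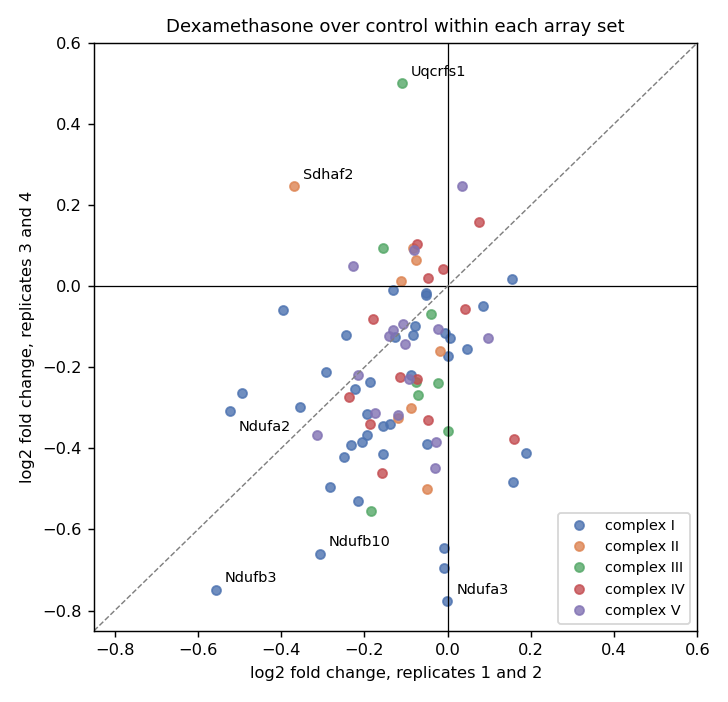
Log2 fold change of dexamethasone over control for the 84 genes in replicates 1 and 2 (x axis) and in replicates 3 and 4 (y axis), coloured by complex, with a dashed line of equal values. Of the 84 genes, 60 lie below 0 on both axes, and Ndufb3 is the lowest on the x axis at -0.56.

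Other mitochondrial lists were set beside the family. Over all probe sets 1.88% were called higher and 0.81% lower at an adjusted p under 0.05. The 29 tested assembly factors outside the family had a median log2 fold change of -0.15, with 0 higher and 1 lower at that threshold. That gene was Cox19, which helps to deliver copper to complex IV, with 452, 432, 478 and 449 with dexamethasone and 602, 644, 818 and 718 in control. Its arrays did not overlap, with a log2 fold change of -0.61 ± 0.12 (limma, SE; adjusted p = 0.0225). The call was lost under 10 of 23 alternatives, among them leaving out dexamethasone replicate 1, 2 or 4 or control replicate 4 (adjusted p = 0.0594, 0.0697, 0.0607 and 0.0534) and the beta-actin covariate (adjusted p = 0.38). The 29 genes of protein import had a median of -0.12, with 0 higher and 1 lower, Tomm40, the channel of the outer membrane. Tomm40 gave 397, 568, 548 and 384 with dexamethasone and 775, 890, 686 and 692 in control (log2 fold change -0.70 ± 0.16, adjusted p = 0.0403), and every dexamethasone array was below every control array. Its call was lost under 11 of 23 alternatives, among them leaving out dexamethasone replicate 1 or 4 (adjusted p = 0.110 and 0.115) or any 1 of the control arrays (adjusted p = 0.0534 to 0.126).

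In 5 further lists no gene passed the adjusted threshold. The 71 mitochondrial ribosomal proteins, which make the subunits encoded by mitochondrial DNA, had a median of -0.17, with 65 below 0. At an unadjusted p under 0.05, 13 were lower and 0 higher. Over all probe sets 54.1% lay below 0, and at that threshold 8.16% were lower and 7.96% higher. The 11 nuclear regulators that were tested, Gabpb1 (a partner of GABPA) and the nuclear receptor Esrra among them, had a median of -0.03, with 0 lower and 0 higher at that threshold. The 21 genes of the citric acid cycle and pyruvate dehydrogenase had a median of -0.01, with 1 lower and 2 higher. The 22 carriers, channels and uncoupling proteins had a median of 0.00, with 0 lower and 1 higher. The 22 genes of antioxidant defence and quality control had a median of -0.03, with 1 lower and 2 higher. These lists were not tested against the family or against each other.

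**Figure D4:**
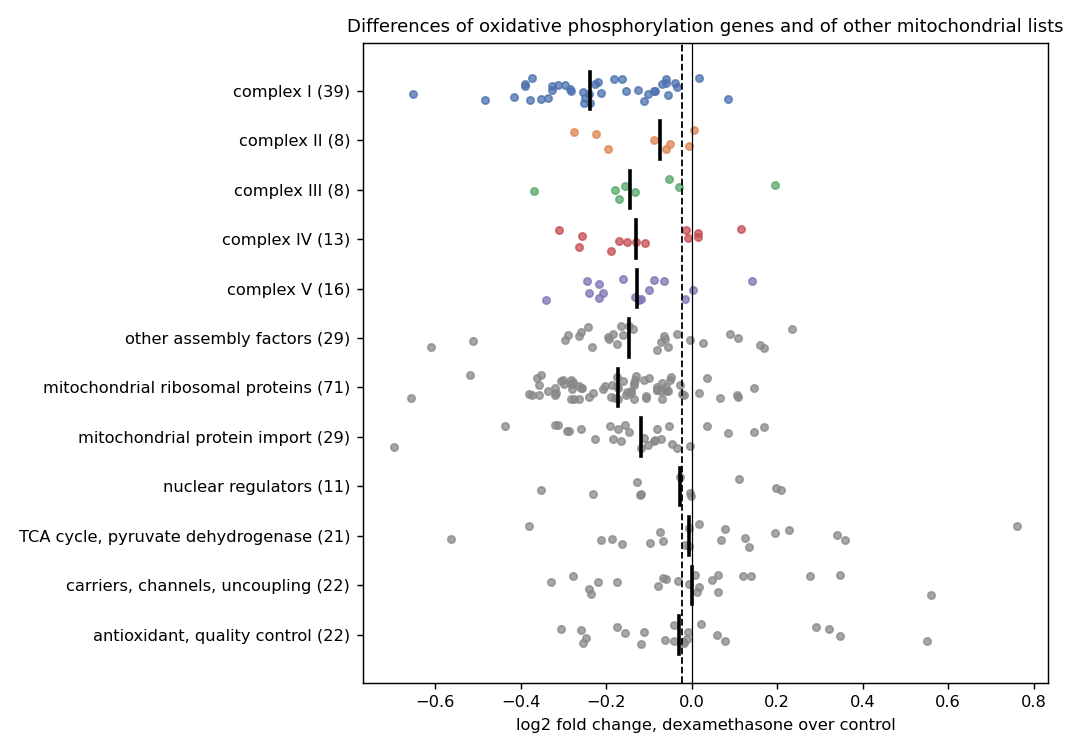
Log2 fold change of dexamethasone over control (x axis) of each tested gene, by complex (coloured) and by other mitochondrial list (grey), with the number of genes in parentheses. Black bars are medians, the solid line is 0 and the dashed line is the median of all probe sets, -0.02, and the median of complex I is -0.24.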

How the data were processed

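Total RNA of 4 dexamethasone-treated and 4 control cultures was amplified in 2 cycles and hybridized to Affymetrix rat arrays. The authors deposited signal intensities on a linear scale, made with the Affymetrix statistical algorithms and, per the labels, scaled to a target of 500. Detection calls and probe-level values were not used here. The table held 15923 probe sets, 57 of them controls. Each array was multiplied to a trimmed mean of 500 (2% left out at each end), signals under 16 were set to 16, log2 was taken, and the 10368 probe sets whose signal averaged 100 or more were tested with limma 3.58.1 in R 4.3.3 (lmFit, eBayes with trend; two-sided; Benjamini-Hochberg over all of them). Single genes were also compared with exact permutation tests. The fit was tested on simulated data with independent noise. That test does not cover deviations shared within an array or an array set. The number of arrays limits the precision.

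The genes named were those past the threshold, the 3 with the smallest unadjusted p in each complex, those above silent genes on no array, and list members past the threshold. Others were named after their values were seen. The members and lists were chosen with earlier results of these data known. Probe sets of several genes (9 would match the rule) were left out. Gene names come from the platform annotation and promoters from RefSeq (GRCr8). Alternatives were other scalings, filters, floors and variance models, blocks for replicate number and array set, each array set alone, the beta-actin ratio as a covariate, the mean over a gene's probe sets, and leaving out each array. For the named members the median of the 16 ratios of a dexamethasone to a control array was also taken.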

Additional observations from a re-analysis of the deposited data

Results flagged for a closer look

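Among 52 groups of 4 arrays (the signals of the named genes and the median deviations of each complex, in each treatment), 5 had 1 array whose gap to the nearest other was larger, as a share of the range, than Dixon's critical value for 4 samples. Chance flags about 5% of such groups. Sdhb was 1431 on dexamethasone replicate 1, with the other dexamethasone arrays at 1336 to 1351. Sdhaf4 was 409 on dexamethasone replicate 2, with the others at 330 to 339. Uqcrq was 3748 on control replicate 3, with the other controls at 2553 to 2710. Uqcr11 was 2478 on control replicate 4, with the other controls at 2806 to 2864. The median deviation of complex II was 0.0035 on dexamethasone replicate 3, with the other dexamethasone arrays at -0.081 to -0.070.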

How the results depend on the processing

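With the signals as deposited, 0 genes were lower at an unadjusted p under 0.05, against 0.312% of all probe sets in that fit. The median log2 fold change of the family was 0.0019 and the value of Uqcr11 0.0070. The median over all probe sets was 0.14 there, against -0.02 after rescaling. At an adjusted p under 0.05, 1 gene (Ndufb3) was lower after quantile normalization and in replicates 1 and 2 alone, and 2 (Ndufb3 and Ndufb10) with the replicate block or the array set block. Over all probe sets the count called lower was 84, against 176 with the replicate block, 234 with the array set block, 2 with the signals as deposited and 8 with the beta-actin covariate. The same replicate numbers did not all deviate together (r = 0.35, 0.25, 0.03 and 0.41), so they were not taken as pairs, and the replicate block called no other member. Between the groups, unlike numbers of the same array set had r of -0.03 to 0.43. Arrays of different sets had r of -0.41 to 0.07, and the main fit held no block for the array set. The unadjusted count of lower genes among the 84 was 13 without the variance trend (15.5%, against 7.72% of all probe sets in that fit), 9 in replicates 1 and 2 alone (10.7%, against 8.44%), 11 in replicates 3 and 4 alone (13.1%, against 5.22%; 1 was higher there, and the median was -0.23) and 2 with the beta-actin covariate (2.38%, against 4.42%), where the median was -0.070 and the log2 fold changes of Sdhaf4, Uqcrc1 and Atp5f1d were 0.00018, 0.024 and 0.030. Uqcrc1 was at 0.00095 in replicates 1 and 2 alone. Leaving out each array in turn gave 0 to 1 genes lower at the adjusted threshold (Ndufb3, without dexamethasone replicate 4 or control replicate 1), 5 to 22 lower and 0 to 1 higher at the unadjusted one, and medians of -0.20 to -0.12. The fewest, 5 (5.95%, against 6.4% of all probe sets), came without dexamethasone replicate 4, followed by 7 without control replicate 3 (8.33%, against 6.85%), 9 without control replicate 2 (10.7%, against 6.6%), 11 without dexamethasone replicate 3 (13.1%, against 7.1%) and 12 without dexamethasone replicate 2 (14.3%, against 7.05%). In the first 2 of these fits the share of the family was near that of all probe sets. The causes were not tested. For the 20 named members, 466 values under the alternatives were counted as the same, 8 passed the threshold and 5 reversed. No member was called in the main fit, so a value of a refit counted as the same kept its direction and stayed uncalled. The 466 include medians of the 16 ratios, which have no p-value and were judged only by direction and closeness to the main estimate. Cox19 kept its call under 13 and Tomm40 under 12 of 23 alternatives. Signals near those of silent genes limit what can be said of the 9 genes above them on no array and of the 4 above them on some.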

Other observations

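Within the mitochondrial ribosomal proteins, the largest differences at an unadjusted p under 0.05 were those of Mrpl14 and Mrpl12, both of the large subunit. Mrpl12 gave 678, 660, 732 and 683 with dexamethasone and 866, 928, 1344 and 871 in control, without overlap (log2 fold change -0.52, adjusted p = 0.0908, limma). Mrpl14 gave 243, 175, 229 and 255 with dexamethasone and 229, 345, 638 and 306 in control (-0.66, adjusted p = 0.252). In both, control replicate 3 was the highest array. Mrpl14 was below the 95th percentile of the silent genes on dexamethasone replicate 2 (219). The summed signal of the list was 55800 to 57927 with dexamethasone and 60704 to 70675 in control.

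Some mitochondrial genes of other lists had higher signals under dexamethasone without passing the adjusted threshold. Pdk2, a kinase that switches off pyruvate dehydrogenase, gave 335, 343, 252 and 250 with dexamethasone and 197, 195, 112 and 203 in control (log2 fold change 0.76, adjusted p = 0.0906). On control replicates 1 and 3 Pdk2 was below the 95th percentile of the silent genes (218 and 264), which limits what its fold change can say. Clpx, the chaperone of a matrix protease, gave 952, 921, 856 and 880 with dexamethasone and 773, 707, 412 and 634 in control (0.55, adjusted p = 0.132). Slc25a30, a carrier of the inner membrane, gave 866, 845, 759 and 754 with dexamethasone and 419, 505, 543 and 774 in control (0.56, adjusted p = 0.114). The first 2 did not overlap between groups, and Slc25a30 overlapped through control replicate 4. Nubpl, which helps to insert clusters into complex I, lay on the other side, with 270, 259, 236 and 242 with dexamethasone and 350, 337, 403 and 345 in control (-0.51, adjusted p = 0.0574). These genes were picked after their values were seen.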
